A study of Rattus norvegicus with 12 samples.

Results

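Complement transcripts were followed in laryngeal muscle of male F344 rats 1 week after the recurrent laryngeal nerve was cut on one side and 1 cm of it taken out, and in control rats operated on in the same way with the nerve left whole. The 9 genes listed were C1qa, C1qb, C1qc, C3, C3ar1, C5ar1, Cfb, Cfd and Serping1, and each was taken as the probe set that the array's annotation gives to that symbol alone. Of these, 7 had such a probe set, out of 14329 genes measured on the array. C5ar1 had none under its name, and the only probe set for Cfb also carries the name of its neighbour C2, so neither gene has a value here. The 12 arrays formed 4 groups of 3: denervated posterior cricoarytenoid muscle (PCA injury), PCA control, denervated laryngeal adductor complex (AC injury) and AC control. The PCA opens the vocal folds and the adductor complex closes them. Each surgery group had 10 animals, and nothing ties an array to an animal, so the p-values cover the scatter of these arrays only, part of which may be technical.

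Complement is a cascade of plasma and tissue proteins that marks targets and draws in leukocytes. In the classical pathway C1q, built of A, B and C chains and made largely by macrophages, binds a target and activates the proteases C1r and C1s, which C1 inhibitor (Serping1) blocks. All routes meet in the cleavage of C3, and the fragment C3a acts on the receptor C3aR (C3ar1), found on myeloid cells. Factor D (Cfd, also called adipsin and made abundantly by fat cells) starts the amplifying alternative pathway together with factor B. Removal of axon and muscle debris by phagocytes after nerve injury is one setting in which complement is known to act.

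In injured PCA the receptor C3ar1, the 3 C1q chains and the inhibitor Serping1 rose. C3 and Cfd did not pass the test. The largest rise was that of C3ar1, at 2.31 ± 0.24 on the log2 scale (4.96-fold), and the C1q chains rose by 0.94 to 1.13 (1.92-fold to 2.19-fold). In injured AC only C3ar1 passed (1.27 ± 0.24, 2.41-fold). The variance of each gene was pooled over all groups, so the SE was the same in both muscles whatever their own scatter. Differences are injury minus control on the log2 scale, with the SE from limma and n = 3 arrays per group, and adjusted p-values are from limma with Benjamini-Hochberg adjustment over all 14329 genes. Of the 7 measured genes 5 rose in PCA and 0 fell, where 13.3% of all genes rose, and 1 rose in AC, where 1.15% did. The median difference of the 7 was 0.94 in PCA and 0.42 in AC, beside -0.03 and 0.02 over all genes. The members were chosen with earlier results of these data known, so these counts and medians are descriptions only.

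**Figure D1:**
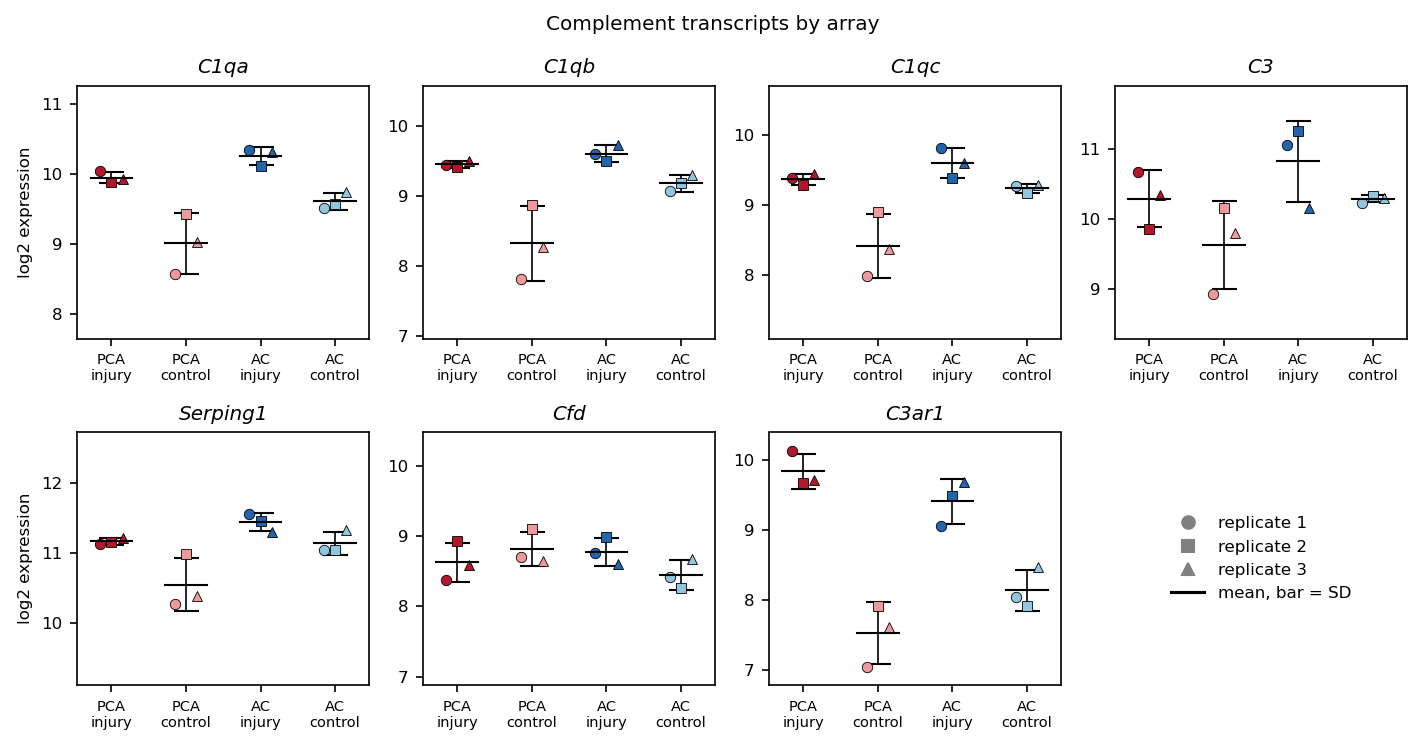
Log2 expression of each measured complement gene in each array (points, shaped by replicate number), by group, with the mean (line) and SD (bar, n = 3); every panel spans the same number of log2 units. C3ar1 and the C1q chains are higher in all PCA injury arrays than in all PCA control arrays, the PCA control arrays are spread apart, and Cfd overlaps between groups.

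The C1q chains were uniform in injured PCA and varied in its controls. C1qa, the A chain, was 10.04, 9.89 and 9.93 in PCA injury, against 8.57, 9.43 and 9.03 in PCA control. The injured arrays lay close together and all above the controls, and the difference was 0.94 ± 0.17 (adjusted p = 0.0029). C1qb, the B chain, was 9.44, 9.41 and 9.5 in PCA injury, against 7.81, 8.87 and 8.27 in PCA control. Its difference was 1.13 ± 0.20 (adjusted p = 0.00246), again without overlap. C1qc, the C chain, was 9.39, 9.29 and 9.44 in PCA injury, against 7.99, 8.91 and 8.37 in PCA control. This came to 0.95 ± 0.19 (adjusted p = 0.00422), and here too all injured arrays exceeded all controls. Each of these calls held in all 22 alternative analyses run, with differences of 0.72 to 1.15 for C1qa, 0.88 to 1.41 for C1qb and 0.73 to 1.19 for C1qc. With the 2 PCA groups fitted alone, the adjusted p from limma rose to 0.028, 0.0276 and 0.0323 for C1qa, C1qb and C1qc.

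In the AC the C1q chains lay higher after injury in every array, but none passed. Each gene had a single variance pooled over all groups, so scatter among the PCA controls entered the SE of the AC differences. For C1qb the SD was 0.12 within each AC group, while the uninjured PCA arrays had 0.53. Passing in PCA but not in AC is thus no test of a contrast between the muscles. C1qa was 10.34, 10.11 and 10.32 in AC injury, against 9.51, 9.57 and 9.75 in AC control (difference 0.65 ± 0.17, adjusted p = 0.0775). It did pass under 4 alternatives: with array weights (adjusted p = 0.036), with the 2 AC groups fitted alone (0.0242), and without PCA control 1 (0.0329) or PCA control 2 (0.0412), arrays of the other muscle that bear on it only through the pooled variance. C1qb was 9.6, 9.49 and 9.72 in AC injury, against 9.07, 9.18 and 9.3 in AC control (0.42 ± 0.20, adjusted p = 0.271). C1qc was 9.81, 9.39 and 9.6 in AC injury, against 9.27, 9.17 and 9.29 in AC control (0.36 ± 0.19, adjusted p = 0.318). With the 2 AC groups fitted alone, limma gave an adjusted p of 0.0534 for C1qb and 0.113 for C1qc. For all 3 chains the 2 AC groups did not overlap, which was also so, with injury higher, for 15.3% of all genes. In the PCA the same held for 18.2% of all genes and for 5 of the 7 complement genes, namely those that passed.

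The 3 chains also moved together from array to array. Pearson's r over the 12 arrays was 0.97 between C1qa and C1qb, 0.96 between C1qa and C1qc and 0.98 between C1qb and C1qc. After the group means were taken away it was still 0.96, 0.93 and 0.91. These values are descriptions, since the points share arrays and groups. The genes lie next to each other on rat chromosome 5 in the order C1qb, C1qc, C1qa, with no other protein-coding gene between them in the RefSeq annotation of GRCr8. The regions around the starts of C1qa and C1qb are shown because these chains rose together, and that of C3ar1 because it rose the most. Each covers 250 bases before and 50 bases after the start, on the gene's own strand (minus in all 3), from RefSeq on GRCr8. Capitals mark matches to 7 short motifs searched on both strands: the TATA box, written TATAAA, the Sp1 motif GGGCGG, the core of sites for the myeloid factor PU.1, which is GAGGAA, the C/EBP motif TTGCNNAA, the E-box motif CANNTG, and the longer NF-kB and interferon response motifs, given by name. No matches of different motifs overlapped in the regions printed.
C1qa, chr5:154419884-154420183: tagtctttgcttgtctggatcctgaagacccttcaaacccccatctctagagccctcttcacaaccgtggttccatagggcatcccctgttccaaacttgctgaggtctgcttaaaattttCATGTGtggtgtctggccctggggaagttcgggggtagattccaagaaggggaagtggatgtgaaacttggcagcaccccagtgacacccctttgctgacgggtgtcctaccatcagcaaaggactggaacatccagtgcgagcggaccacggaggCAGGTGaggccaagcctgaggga
C1qb, chr5:154407778-154408077: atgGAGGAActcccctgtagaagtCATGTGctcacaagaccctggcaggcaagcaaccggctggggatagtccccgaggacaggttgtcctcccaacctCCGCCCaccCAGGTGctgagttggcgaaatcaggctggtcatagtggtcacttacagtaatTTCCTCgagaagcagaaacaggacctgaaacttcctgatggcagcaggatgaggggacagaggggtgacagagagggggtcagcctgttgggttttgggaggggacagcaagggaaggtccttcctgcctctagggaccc
C3ar1, chr4:157756481-157756780: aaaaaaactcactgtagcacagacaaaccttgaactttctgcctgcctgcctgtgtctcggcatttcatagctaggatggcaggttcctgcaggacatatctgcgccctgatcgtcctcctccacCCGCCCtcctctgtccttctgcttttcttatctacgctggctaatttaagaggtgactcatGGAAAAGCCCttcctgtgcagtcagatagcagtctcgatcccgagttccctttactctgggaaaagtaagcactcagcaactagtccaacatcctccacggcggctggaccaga

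The C1qb region held GAGGAA at 247 bases before the start and, on the opposite strand, at 90 bases before it (first base of each match), and this motif occurred in 27.6% of the 33365 distinct promoter sequences in the table. It also held GGGCGG, present in 33.1% of promoters, and CANNTG, present in 72.1%. The C1qa region matched only CANNTG. The C3ar1 region held, both on the opposite strand, GGGCGG and 1 match to the NF-kB motif, the last found in 5.01% of promoters. Of the other members in the table, C3 (TTGCNNAA, in 10.6% of promoters, and CANNTG) and Cfd (GGGCGG) had matches. TATAAA (14.2% of promoters) and the interferon response motif (3.92%) matched in none of these 5 regions. A match is a run of letters and says nothing of binding.

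C3ar1 separated the groups most widely. It was 10.13, 9.67 and 9.71 in PCA injury, against 7.05, 7.92 and 7.61 in PCA control. No control array came within 1 log2 unit of an injured one, and the adjusted p was 2.38e-04. Only 60 of the 14329 genes had a larger difference in PCA. In the AC it was 9.06, 9.48 and 9.69 after injury, against 8.04, 7.92 and 8.47 in controls. The groups again did not overlap (adjusted p = 0.03), and 46 genes had a larger difference. The AC call was lost in 7 of 22 alternatives although the difference stayed between 1.13 and 1.44; the adjusted p was 0.134 and 0.11 without AC injury 2 and 3, 0.111 and 0.144 without AC control 1 and 2, and 0.118 without 3 arrays with high thyroid transcripts. Within arrays, the distance between C3ar1 and the mean of the C1q chains shifted upwards after injury; only its change between groups can be read, since levels on different probe sets are not comparable. C3ar1 minus the mean of the chains was 0.51, 0.14 and 0.09 in PCA injury, against -1.07, -1.15 and -0.95 in PCA control, and -0.86, -0.18 and -0.19 in AC injury, against -1.24, -1.39 and -0.98 in AC control. Neither muscle's groups overlapped on this measure, and the exact two-sided permutation p was 0.1 in each, the smallest that 3 against 3 arrays allow.

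**Figure D2:**
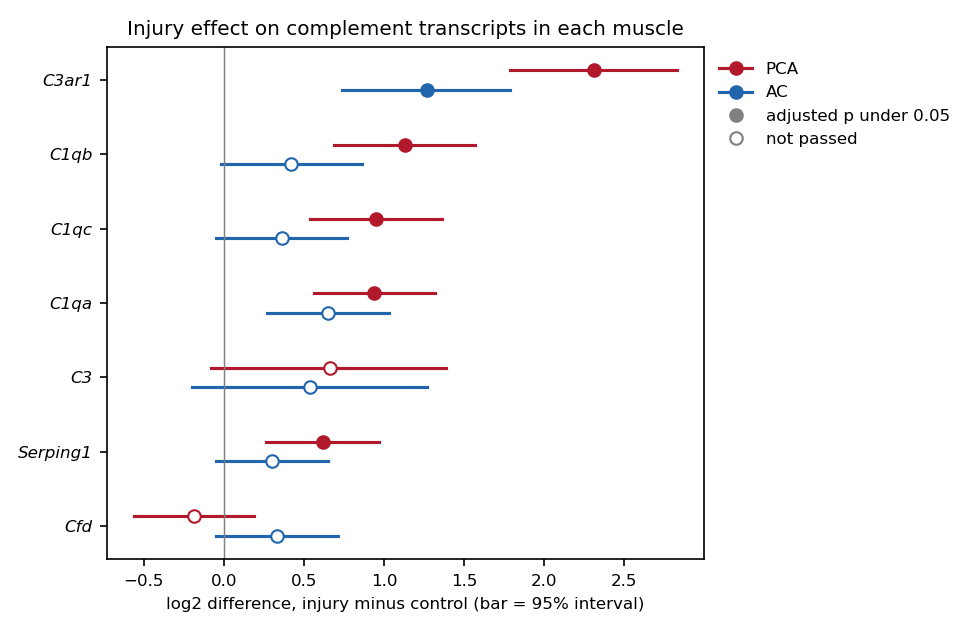
Log2 difference between injury and control arrays for each measured gene in PCA (red) and AC (blue); bars are 95% intervals from limma and filled points passed at an adjusted p of 0.05. C3ar1 stands at 2.31 in PCA and 1.27 in AC, and the intervals of C3 and Cfd include 0 in both muscles.

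Serping1 encodes C1 inhibitor, which also restrains the contact system. It was 11.13, 11.16 and 11.22 in PCA injury, against 10.28, 10.99 and 10.39 in PCA control. The injured arrays were nearly level and above every control, with a difference of 0.62 ± 0.16 (adjusted p = 0.0166). This call did not hold without PCA control 1 (0.48, adjusted p = 0.0625) or PCA control 3 (0.54, adjusted p = 0.0693), with the 2 PCA groups fitted alone (adjusted p = 0.0661), or without the 3 arrays with high thyroid transcripts (0.49, adjusted p = 0.13). In the AC it was 11.56, 11.46 and 11.3 after injury, against 11.04, 11.05 and 11.33 in controls. AC injury 3 lay below AC control 3, and the difference of 0.30 ± 0.16 did not pass (adjusted p = 0.33).

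C3, the central component, varied widely in every group but AC control. It was 10.67, 9.85 and 10.34 in PCA injury, against 8.93, 10.16 and 9.8 in PCA control. PCA injury 2 lay below PCA control 2, and the difference was 0.66 ± 0.34 (95% interval -0.08 to 1.39, adjusted p = 0.184), or 0.31 without PCA control 1. In the AC it was 11.05, 11.26 and 10.16 after injury, against 10.23, 10.33 and 10.3 in controls. The injured AC arrays 1 and 2 lay above all controls and AC injury 3 below all of them, so the difference of 0.54 ± 0.34 (95% interval -0.20 to 1.27) did not pass (adjusted p = 0.409). It was 0.32 without AC injury 2 and 0.87 without AC injury 3. The SD of C3 was 0.58 in AC injury and 0.05 in AC control, where the median SD over all genes was 0.11 and 0.10.

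Cfd, the serine protease that cleaves factor B, was 8.38, 8.93 and 8.59 in PCA injury, against 8.71, 9.1 and 8.65 in PCA control (-0.19 ± 0.17, 95% interval -0.56 to 0.19, adjusted p = 0.477). With single arrays left out the difference ranged down to -0.34 without PCA injury 2 and up to -0.05 without PCA control 2, with -0.06 without PCA injury 1. In the AC it was 8.76, 8.99 and 8.6 after injury, against 8.42, 8.26 and 8.68 in controls (0.33 ± 0.17, 95% interval -0.05 to 0.71, adjusted p = 0.314). Groups overlapped in both muscles. Over the same arrays 10 of 12 measured adipocyte markers fell in PCA and 0 rose, where 12.5% of all genes fell. Their mean log2 score was 7.78 to 8.60 in PCA injury, against 9.05 to 9.56 in PCA control. The fat marker Adipoq, adiponectin, was 8.23, 9.51 and 8.64 in PCA injury, against 10.15, 10.55 and 10.2 in PCA control. Relative to this score, Cfd was 0.60, 0.33 and 0.68 in PCA injury, against -0.55, -0.46 and -0.40 in PCA control. In the AC, where 0 adipocyte markers passed, it was 0.99, 0.69 and 0.75 after injury, against 0.38, 0.19 and 0.62 in controls. In neither muscle did the groups overlap on this measure (exact two-sided permutation p = 0.1 in each, the smallest possible). In PCA the measure moved mostly through the score, whose mean was 8.1 after injury and 9.29 in controls, so it is no separate result about Cfd. Within groups Cfd and the score varied together (r = 0.82 over 12 arrays after removal of group means).

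The injury effects of the 2 muscles were then compared directly. The PCA effect minus the AC effect was 1.04 ± 0.34 for C3ar1 (adjusted p = 0.157), 0.71 ± 0.28 for C1qb (adjusted p = 0.251), 0.59 ± 0.26 for C1qc (adjusted p = 0.308) and 0.30 ± 0.24 for C1qa (adjusted p = 0.6). It was 0.32 ± 0.23 for Serping1 (adjusted p = 0.544), 0.12 ± 0.47 for C3 (adjusted p = 0.933) and -0.52 ± 0.24 for Cfd (adjusted p = 0.335). By limma 0 of the 7 passed, and 0.154% of all genes did; 3 had an unadjusted p under 0.05 (C3ar1, C1qb and C1qc), as had 15.7% of all genes. Without PCA control 2, the highest PCA control for all 7 genes, C1qb (0.99, adjusted p = 0.0204) and C1qc (0.84, adjusted p = 0.0427) passed, and 406 genes passed in all, against 22 with all arrays.

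The muscles were also compared within control and within injured animals. In controls the C1q chains and Serping1 were lower in PCA than in AC: C1qb by -0.87 ± 0.20 (adjusted p = 0.0199), C1qc by -0.82 ± 0.19 (adjusted p = 0.0187), C1qa by -0.60 ± 0.17 (adjusted p = 0.0484) and Serping1 by -0.59 ± 0.16 (adjusted p = 0.0409). C3 (-0.66 ± 0.34), C3ar1 (-0.62 ± 0.24) and Cfd (0.37 ± 0.17) did not pass (adjusted p = 0.239, 0.126 and 0.2). Thus 4 of 7 were lower, where 7.39% of all genes were. All PCA controls lay below all AC controls for 5 of 7, these 4 and C3, as for 15.9% of genes. Markers of other cell types differed in the same comparison: all 6 measured squamous markers were lower in PCA controls (median -2.3), as were 10 of 13 neutrophil and mast cell markers (median -1.31), 4 of 12 fibroblast markers and 2 of 13 macrophage markers, while 9 of 12 adipocyte markers were higher (median 1.26), where 3.24% of all genes were higher. Their part in the complement differences was not tested. None of the 4 calls held with the control groups fitted alone, where the differences are the same by construction. All 4 were also lost without PCA control 3, without AC control 1 or without AC control 3. In the last case the differences were -0.53 for C1qa, -0.81 for C1qb, -0.80 for C1qc and -0.49 for Serping1. Without PCA control 1 only the call of C1qb remained (-0.61), and C1qa shrank to -0.38. Without AC control 2 only the call of C1qc remained. In injured animals C3ar1 differed by 0.43 ± 0.24 and the other 6 by -0.54 to -0.15, PCA minus AC, and 0 passed in limma, nor did any have an unadjusted p under 0.05. Over all genes 0% passed in that comparison, with 517 (3.61%) at an unadjusted p under 0.05. Every injured PCA array lay below every injured AC array for C1qa and Serping1, which was so for 4.28% of genes. These comparisons share arrays with the injury comparisons and are no separate evidence.

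The PCA control arrays were spread apart for these genes. PCA control 2 was the highest of the 3 for all 7 members and PCA control 1 the lowest for 6, all but Cfd, and 21.9% of all genes showed both. The SD in PCA control was 0.43, 0.53 and 0.46 for C1qa, C1qb and C1qc, above that of at least 95.8% of genes. In PCA injury it was 0.08, 0.05 and 0.08, and the median over all genes was 0.13 in PCA injury and 0.12 in PCA control. Scores of other cell types were uneven in the same arrays. The macrophage score, a mean over 13 markers, was 10.18, 9.69 and 9.71 in PCA injury, against 8.08, 8.74 and 8.38 in PCA control. The squamous epithelium score, over the 6 of 12 markers measured, was 10.98 to 11.52 in PCA injury, against 9.04, 10.44 and 8.12 in PCA control. A score of thyroid and parathyroid markers reached 10.19 in PCA injury 2, 10.61 in PCA control 1 and 8.85 in AC injury 2, while the remaining arrays lay at 6.19 to 7.30. Tg, thyroglobulin, alone was also bright in PCA control 3 (13.1) and PCA injury 1 (11.34). Without these 3 arrays 4 of the 7 genes still rose in PCA, the C1q chains and C3ar1, and 0 passed in AC.

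Macrophage and fibroblast markers moved with the complement genes other than Cfd, least closely with C3. Squamous markers moved with these genes in PCA only. In bulk muscle, more cells of a type and more RNA per cell cannot be told apart. Of 13 macrophage markers 11 rose in PCA (median 1.44) and 3 in AC (median 0.74), and the score was 9.51 to 9.89 in AC injury, against 8.89 to 9.14 in AC control. Over the 12 arrays the macrophage score had r = 0.98 with C3ar1, 0.92, 0.90 and 0.85 with C1qa, C1qb and C1qc, 0.79 with Serping1, 0.68 with C3 and -0.05 with Cfd, as a description. Within groups these were 0.94 for C3ar1, 0.74, 0.71 and 0.52 for the chains and 0.50 for Serping1. The thyroid and parathyroid score had within-group r = -0.76, -0.71 and -0.78 with C1qa, C1qb and C1qc, and -0.52 with C3ar1. The fibroblast score had r = 0.97 with C3ar1 and 0.79 with Serping1 (0.94 and 0.50 within groups). With C1qa, C1qb and C1qc it had 0.90, 0.88 and 0.81 (0.65, 0.62 and 0.39 within groups), and with C3 0.63 (0.24 within groups). The airway and gland score had r = -0.16 with C1qc, and 0.60 within groups. For Serping1 and C1qc the squamous score gave values above those of the macrophage score, at 0.85 and 0.87 (0.70 and 0.65 within groups); it had 0.84 with C1qb, 0.74 with C1qa and 0.56 with C3ar1. The mean of the C1q chains minus the macrophage score was -0.56, -0.16 and -0.09 in PCA injury, against 0.04, 0.33 and 0.18 in PCA control. All injured arrays lay below all controls (exact two-sided permutation p = 0.1), whereas the AC groups overlapped (difference -0.25, exact permutation p = 0.4). C3ar1 minus that score was -0.05 and -0.02 in PCA injury 1 and 2 and 0.00 in PCA injury 3, against -1.03 to -0.77 in PCA control. In the AC it was -0.45, -0.30 and -0.20 after injury, against -0.85, -1.05 and -0.67 in controls. The 13 macrophage markers themselves differed by 0.04 to 2.76 in PCA, Cd68 the most. The 2.31 of C3ar1 and the 0.94 to 1.13 of the C1q chains both lie within that range. Of 12 fibroblast markers 9 rose in PCA (score 11.01 to 11.30, against 10.04 to 10.48 in controls) and 1 in AC. All 6 measured squamous markers rose in PCA. In AC 0 passed and all 6 had negative differences (median -0.31), while those of the 7 complement genes were all positive. Of 13 neutrophil and mast cell markers 1 rose in PCA and 4 fell in AC, where 0.761% of all genes fell. The part of these cell types in the complement differences was not tested.

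**Figure D3:**
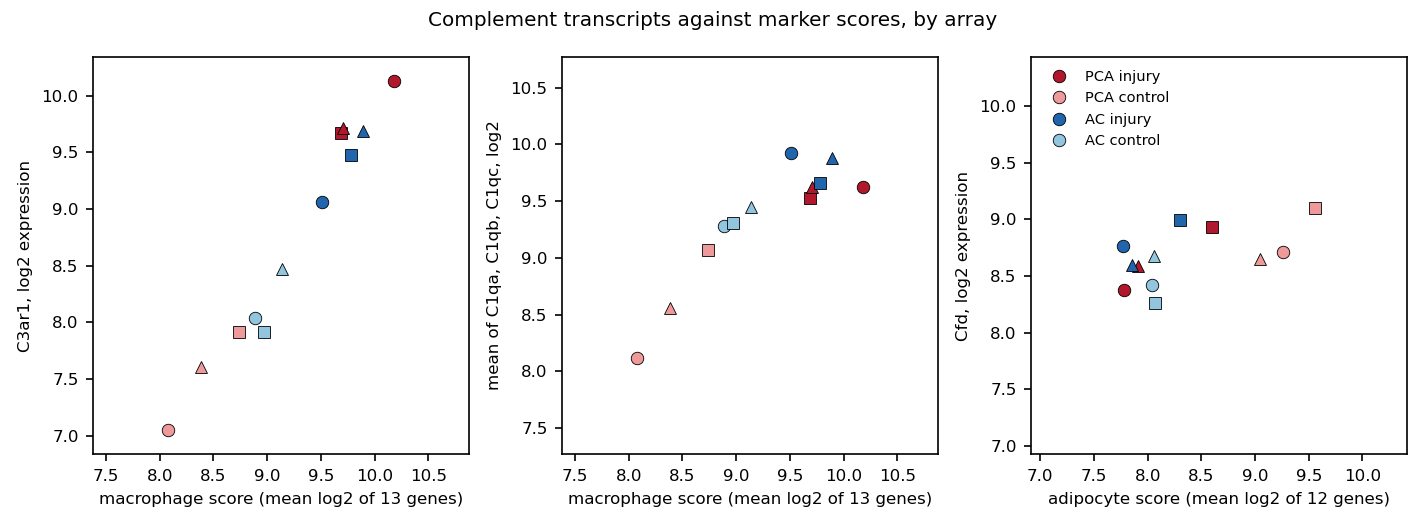
C3ar1, the mean of the C1q chains and Cfd (log2, vertical axes) against the macrophage or adipocyte score (mean log2 of the markers, horizontal axes); each point is an array, coloured by group and shaped by replicate number as circles, squares and triangles for 1, 2 and 3. C3ar1 and the C1q mean lie higher where the macrophage score is higher, whereas Cfd keeps a narrow range over adipocyte scores from 7.77 to 9.56.

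Defining markers of the labelled tissue were bright: Acta1, skeletal actin, lay between 13.40 and 13.68 in all arrays. Of 13 skeletal muscle markers 6 fell in PCA and 0 passed in AC. Of the liver list, whose tissue makes most plasma complement, 4 of 5 were measured; 2 fell and 0 rose in PCA, 0 passed in AC, and Alb, albumin, was 5.63 to 5.93 in PCA injury, against 6.16 to 6.62 in PCA control, and the 25th percentile of all probe set values was 5.48. Of 9 airway and gland markers 1 rose and 3 fell in PCA, and 0 passed in AC. The 5 endothelial and 10 thyroid markers passed in neither muscle.

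Of 47 other complement genes on a list of the pathway 38 were measured; C2, C4a, C4b, C5, Cd59, C5ar2 and Itgax are among those with no value here. In PCA 9 rose and 1 fell, beside 13.3% and 12.5% of all genes, and the median difference was -0.03. In AC 0 passed by limma, 13 had an unadjusted p under 0.05, as had 20.3% of all genes, and the median was 0.07. The proteases that act just after C1q both rose in PCA. C1s was 10.31, 10.04 and 10.22 in PCA injury, against 9.13, 9.66 and 9.37 in PCA control (0.80 ± 0.14, adjusted p = 0.00196). C1r was 11.43, 11.24 and 11.38 in PCA injury, against 10.59, 11.16 and 10.78 in PCA control (0.51 ± 0.13, adjusted p = 0.0133). In the AC they came to 0.31 ± 0.14 and 0.25 ± 0.13 (adjusted p = 0.232 and 0.299). C7, a subunit of the membrane attack complex, rose by 0.74 ± 0.19 (adjusted p = 0.0171), whereas C6, C8a, C8b, C8g and C9 did not pass; of these C8a, C8b and C9 had mean values below 5.48 in each group, the 25th percentile of all probe set values.

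In PCA, the largest rises on this list were those of the subunits of complement receptor 3, which takes up targets coated with C3 fragments. Itgam was 9.39, 8.43 and 8.42 in PCA injury, against 5.76, 6.45 and 6.18 in PCA control (2.62 ± 0.31, adjusted p = 4.12e-04). Itgb2, its partner chain, was 10.69, 10.02 and 9.88 in PCA injury, against 7.67, 8.18 and 7.72 in PCA control (2.34 ± 0.27, adjusted p = 3.56e-04). In the AC both lay higher in every injured array, at 1.03 ± 0.31 and 1.06 ± 0.27, without passing (adjusted p = 0.104 and 0.0698). Vsig4, another receptor for C3 fragments on resident macrophages, was at 0.12 ± 0.09 in PCA and did not pass (adjusted p = 0.351), but its probe set was dim, at 4.43 to 4.82 in all arrays, where the 25th percentile of all probe set values was 5.48.

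Other members of the list that rose in PCA were Ptx3, a pattern recognition protein that binds C1q (1.05 ± 0.28, adjusted p = 0.019), Fcnb, a ficolin of the lectin pathway (0.83 ± 0.27, adjusted p = 0.0429), Cfp, properdin, which stabilises the alternative pathway convertase (0.65 ± 0.15, adjusted p = 0.011), and Cd93 (0.61 ± 0.12, adjusted p = 0.00358). The member that fell was Susd4, a membrane protein with complement control repeats (-0.56 ± 0.11, adjusted p = 0.00377). Cfi, the protease that inactivates C3b, was 6.77, 5.85 and 6.0 in PCA injury, against 5.53, 5.69 and 6.05 in PCA control, and 7.14, 7.7 and 5.85 in AC injury, against 5.44, 5.73 and 5.79 in AC control. AC injury 3 again stood near the controls, and neither difference passed (0.45 and 1.24, adjusted p = 0.45 and 0.111). The mannose-binding lectins Mbl1 and Mbl2 and the proteases Masp1 and Masp2 did not pass in either muscle.

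**Figure D4:**
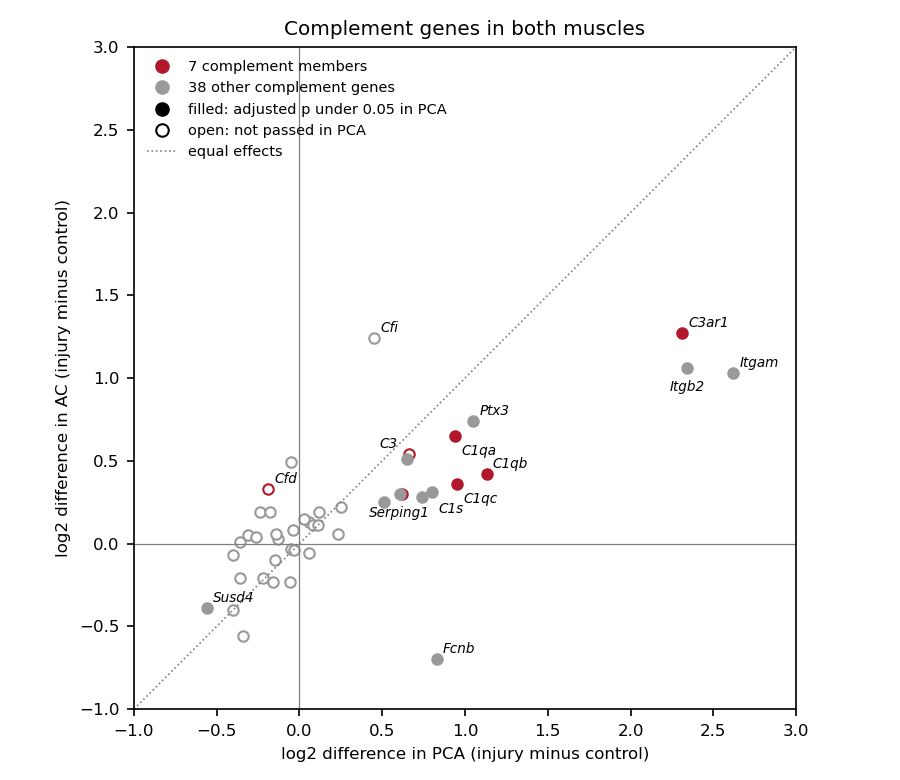
Log2 difference between injury and control in AC (vertical) against that in PCA (horizontal) for the 7 complement members (red) and 38 other complement genes (grey), on equal axes; filled points passed in PCA. C3ar1, Itgam and Itgb2 stand above 2 in PCA and near 1 in AC, and Fcnb lies above 0 in PCA and below 0 in AC.

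The genes whose pattern over the 12 arrays was most like that of a member were found by Pearson's r among all genes tested. For C3ar1 they were Lgmn (0.995), Clec4a3 (0.995) and Cd68 (0.993). For C1qa they were P2ry13 (0.984), B4galt5 (0.972) and Pdpn (0.972), for C1qb Cd248 (0.983), P2ry13 (0.982) and Cd4 (0.98), and for C1qc C1s (0.981), Eef1g (0.979) and Rps19 (0.972). Serping1 was most like C1r (0.98), Igfbp4 (0.962) and Rpl28 (0.958), C3 most like Pdgfra (0.945), Lrwd1 (0.941) and Irak3 (0.931), and Cfd most like Akr1c14 (0.899), Fbxl15 (0.865) and Il24 (0.851). C1r and C1s thus stood among the closest patterns to Serping1 and C1qc, beside genes outside complement (Igfbp4 and Rpl28 for Serping1, Eef1g and Rps19 for C1qc). These are the highest of 14329 values on 12 arrays that share groups, and they are given as descriptions.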

How the data were processed

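Total RNA (100 ng from 30 to 50 mg specimens) was labelled with biotin and put on 12 Affymetrix arrays of the whole-transcript type, per the labels' protocols. The authors deposited 1 log2 value per probe set and array; the submitters' processing notes list RMA and Partek with no version, and the log base was taken from the range of the values (2.57 to 14.04). The background step and any probe filter are not stated in the sources used here. RMA usually includes quantile normalisation, which makes a difference relative to the rest of the array (array medians 7.11 to 7.17). The number of arrays limits precision. A level on one probe set cannot be set against that on another.

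Of 27342 probe sets 15103 had 1 gene symbol, 317 several and 11922 none; only the first entered. Of the first, 15067 matched RefSeq (GRCr8) by gene identifier, 36 did not and 0 changed name. Where a gene had several (500 genes), the brightest by mean was kept; each complement member had 1. No filter on dim genes was applied. All arrays entered a single fit of 4 group means in limma 3.58.1 under R 4.3.3 (lmFit, then eBayes), tested two-sided, with Benjamini-Hochberg adjustment over 14329 genes and a threshold of 0.05, for 5 comparisons. On simulated data for injury in PCA, over 14329 genes with 200 changed, it recovered 65.7%, 88.1% and 100% of genes changed 1.5-fold, 2-fold and 4-fold. The simulated noise was independent between arrays and genes, with the same spread in all groups for each gene. In the real arrays the spread differed between groups (C1qb SD 0.53 in PCA control, 0.05 in PCA injury), so these shares need not hold for them. Marker scores are mean log2 values. Plots were made with matplotlib 3.10.9 under Python 3.11.15.

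The members, the lists, the tests and the rule for named genes were chosen with earlier results of these data known. The rule names all 9 members, the other complement genes that passed, C1r, C1s, C2, C4a, Cfi, Cfp, Itgam and Itgb2 in any case, for each member the 3 genes with the highest Pearson's r (members and symbols starting with LOC, RGD, Mir, Rn or AABR left out), and the end members or defining genes of marker lists. Some items on the list of other complement genes are not reported here. Other genes that did not pass (C6, C8a, C8b, C8g, C9, Mbl1, Mbl2, Masp1, Masp2 and Vsig4) and Adipoq were chosen after their values were seen. Alternatives changed the normalisation, filter, prior, array weights, choice of probe set, replicate block, groups in the fit, threshold and arrays kept.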

Additional observations from a re-analysis of the deposited data

Results flagged for a closer look

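Fcnb, a ficolin of the lectin pathway, had injury differences of opposite sign in the 2 muscles. Only that in PCA passed (limma, adjusted p = 0.0429), and no alternative analyses were run for this gene. Every array of each injured group lay on one side of its controls, in the AC narrowly (AC injury 2 at 8.67, AC control 3 at 8.69). Of all genes 18.2% lay higher in every injured PCA array, and 1875 of 14329 lay lower in every injured AC array. The share with both was not computed. It was 8.98, 7.96 and 8.29 in PCA injury, against 7.44, 7.77 and 7.52 in PCA control, and 8.14, 8.67 and 8.57 in AC injury, against 9.18, 9.6 and 8.69 in AC control. The difference of the injury effects, PCA minus AC, was 1.53 ± 0.38, which did not pass in limma (adjusted p = 0.0865). Of 13 neutrophil and mast cell markers 1 rose in PCA, and 4 fell in AC, where 0.761% of all genes fell and their mean log2 score was 6.68 to 7.06 in AC injury, against 7.57 to 7.95 in AC control; their part in the values of Fcnb was not tested.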

How the results depend on the processing

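Over 35 member values (7 genes in 5 comparisons), 763 alternatives were computed. Of these 696 kept direction and side of the threshold, 57 lost a call, 6 gained one and 4 changed sign. The 696 include values not called at first that stayed so. Calls could be lost only by the 5 members called for injury in PCA, 1 for injury in AC and 4 for PCA against AC in controls. In controls the call was lost in 16 of 22 alternatives for C1qa, 15 for Serping1, 7 for C1qb and 7 for C1qc. The changes of sign were all in C3, difference of the injury effects (0.12, not passed): -0.06 with array weights, -0.07 without PCA injury 1, -0.23 without PCA control 1 and -0.21 without AC injury 3, within a range of -0.23 to 0.39 with single arrays left out. Members called numbered 4 to 5 with single arrays left out for injury in PCA, 0 to 2 for injury in AC, 0 to 2 for the difference and 0 to 4 for PCA against AC in controls. For injury in AC, where 1 was called, 2 were with array weights or the 2 groups alone, and 0 with the replicate block, without the 3 arrays with high thyroid transcripts or at an adjusted p of 0.01. For PCA against AC in controls, where 4 were called, 2 were after a second quantile normalisation or with the replicate block, and 0 with the 2 groups alone, without those 3 arrays or at 0.01.

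Over all genes, injury in PCA (3697 called) gave 2257 with the 2 groups alone, 2335 without the 3 arrays, 1865 at 0.01 and 2466 to 3558 with single arrays left out. Injury in AC (274) gave 703 with array weights, 59 with the replicate block, 619 with the 2 groups alone, 10 without the 3 arrays, 17 at 0.01 and 13 to 663 with single arrays left out. The difference (22) gave 39 after quantile normalisation, 35 with a trended robust prior, 348 with array weights, 0 with the replicate block, without the 3 arrays and at 0.01, and 0 to 406 with single arrays left out. PCA against AC in controls (1523) gave 2626 with array weights, 812 without the 3 arrays, 560 at 0.01 and 714 to 1813 with single arrays left out. The causes were not tested. The labels do not say whether replicate numbers pair the arrays, and the values cannot settle it, since each deviation is taken from a mean of 3 arrays. Over 12 same-numbered pairs the correlation of deviations ran from -0.39 to 0.34, and in 2 of these pairs the match was best with its own number. With the replicate block the AC call of C3ar1 was lost (limma, adjusted p = 0.0633). With genes left out whose mean lay below the 25th percentile of gene means, no member call changed. The values used here carry no measure of signal over background. Whether dim signal limits a single probe set was therefore not assessed.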
